A study of Mus musculus with 6 samples.

Results

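The genes described here are 10 members of the actin and contractile apparatus: the actins Actb, Actg1 and Acta2, the actin-binding proteins Tagln, Cnn1, Cnn2, Tpm1 and Tpm2, the myosin light chain Myl9 and the adhesion protein Vcl. They were chosen by name, as actins and known targets of the transcription factor SRF, out of 54532 genes in the deposited table. All 10 were found by symbol. RNA was measured in haploid mouse embryonic stem cells of strain 129SV, which carry a single set of chromosomes. There were 3 libraries of p53-deficient haploid cells and 3 of wild-type (WT) haploid cells, with no other treatment named. The study set p53-deficient cells against WT cells as part of work on apoptosis and the return of haploid cells to the diploid state.

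The labels of the p53-deficient group differ: sample titles read P53ki and the columns of deposited values read P53_KO. WT titles carry a further tag that the p53-deficient titles lack. Nothing in the labels states that libraries of a group came from separate cultures, and titles within a genotype do not separate lines or clones. The p-values therefore rest on the spread of these 6 libraries, part or all of which may be technical. Effects of p53 loss and of a particular line or clone cannot be told apart. In bulk RNA of this kind, fewer cells of a type and less RNA per cell cannot be told apart either.

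Actin monomers assemble into filaments that, with myosin II, tropomyosin and calponin, generate and bear tension. SRF binds a DNA element known as the CArG box in the promoters of many of these genes. Its cofactors of the MRTF family are held inactive by free actin monomers and released when monomers are taken up into filaments, so that actin genes answer to the state of actin itself. Embryonic stem cells use mainly the cytoplasmic actins, Actb and Actg1, while Acta2, Tagln, Cnn1, Myl9 and Tpm2 are best known from smooth muscle, myofibroblasts and other contractile mesenchymal cells.

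Promoter sequences were taken from RefSeq (GRCm38.p6, the assembly behind mm10) as 250 bases before and 50 bases after the start of the gene, and 8 of the 10 genes had one; Actb and Tagln did not. Those of 5 genes are shown: the 4 with an exact CArG box, which differed in opposite directions between the groups, and Acta2, the gene of the largest fall. Sequences run 5′ to 3′ on the strand of the gene, and capitals mark a match to the CArG box, exact or with 1 mismatch.
Actg1, chr11:120348446-120348745, minus strand: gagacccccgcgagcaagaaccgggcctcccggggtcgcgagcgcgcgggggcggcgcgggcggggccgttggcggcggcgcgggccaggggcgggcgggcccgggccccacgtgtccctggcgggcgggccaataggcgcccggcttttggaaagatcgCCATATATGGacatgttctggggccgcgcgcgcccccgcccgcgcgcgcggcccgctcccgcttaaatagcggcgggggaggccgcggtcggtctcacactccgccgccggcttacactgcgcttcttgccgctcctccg
Vcl, chr14:20929148-20929447, plus strand: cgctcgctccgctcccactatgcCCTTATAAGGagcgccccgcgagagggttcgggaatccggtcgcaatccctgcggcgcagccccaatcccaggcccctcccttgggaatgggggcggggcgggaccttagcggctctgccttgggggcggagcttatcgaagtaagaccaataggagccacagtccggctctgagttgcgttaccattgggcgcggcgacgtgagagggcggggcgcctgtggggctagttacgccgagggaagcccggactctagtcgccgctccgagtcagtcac
Cnn2, chr10:79988350-79988649, plus strand: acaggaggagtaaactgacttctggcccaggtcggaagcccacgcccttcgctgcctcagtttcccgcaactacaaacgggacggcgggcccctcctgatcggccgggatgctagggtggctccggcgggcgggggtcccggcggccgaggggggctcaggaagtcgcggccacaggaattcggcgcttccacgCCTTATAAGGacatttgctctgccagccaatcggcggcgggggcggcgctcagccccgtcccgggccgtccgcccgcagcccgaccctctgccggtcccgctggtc
Myl9, chr2:156775214-156775513, plus strand: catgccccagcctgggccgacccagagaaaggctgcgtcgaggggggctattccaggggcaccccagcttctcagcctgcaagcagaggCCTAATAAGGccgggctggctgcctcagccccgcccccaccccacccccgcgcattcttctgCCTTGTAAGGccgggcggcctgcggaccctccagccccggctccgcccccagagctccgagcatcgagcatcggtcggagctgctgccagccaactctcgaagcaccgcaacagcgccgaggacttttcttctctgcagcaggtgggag
Acta2, chr19:34255324-34255623, minus strand: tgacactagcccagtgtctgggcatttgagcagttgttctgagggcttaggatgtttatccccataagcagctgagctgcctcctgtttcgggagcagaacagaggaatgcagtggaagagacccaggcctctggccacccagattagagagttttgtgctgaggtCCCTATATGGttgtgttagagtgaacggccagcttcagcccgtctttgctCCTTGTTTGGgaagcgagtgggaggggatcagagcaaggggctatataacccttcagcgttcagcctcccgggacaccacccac

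The search covered both strands, on which the CArG box reads alike. Exact matches stood in 4 of the 8 promoters, those of Actg1, Vcl, Cnn2 and Myl9, and began at -90, -227, -56 and -161 bases from the start. Acta2 had 2 matches with 1 mismatch, at -84 and -34, Myl9 had 1 more at -99 and Tpm1 had 2, at -221 and -80. The windows of Cnn1 and Tpm2 held no match of either kind. That of Srf itself held 2 exact matches, at -82 and -62, and 1 with a mismatch at -39. Among 32851 promoter windows of the same length, 535 (1.63%) held an exact match and 6936 (21.1%) held a match with at most 1 mismatch. A match describes the letters in the window and does not show that SRF binds there. The 4 exact matches lie in 2 genes that were higher in p53-deficient cells (Actg1 and Vcl) and 2 that were lower (Cnn2 and Myl9).

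Depth, counted as reads in listed genes, was 11536412 to 21218976 in p53-deficient libraries and 17065841 to 20331905 in WT libraries. Trp53, which encodes p53, held 9.80 ± 0.155 FPKM in p53-deficient libraries and 68.0 ± 3.03 FPKM in WT libraries (SD, n = 3 each), so it was low in the group labelled deficient. FPKM is fragments per kilobase of gene scaled to library size, a level per length that can be set side by side between genes. The groups differed across much of the transcriptome. Of 15144 genes with a mean of at least 0.5 FPKM, 35.3% were called higher and 31.3% lower in p53-deficient cells, 66.5% either way, at an adjusted p under 0.05 (limma on log2(FPKM + 1), Benjamini-Hochberg over all genes tested). Groups did not overlap in 71.4% of the genes tested.

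Against that background, 9 of the 10 genes passed the filter on low values. In p53-deficient cells 2 were called higher (Actg1 and Vcl), 6 lower (Acta2, Cnn1, Cnn2, Myl9, Tpm1 and Tpm2), and 1, Actb, did not pass. Tagln was below the filter and was not tested. The groups did not overlap in any of the 9 tested genes. Size was taken on the log2(FPKM + 1) scale. Falls of at least 2-fold were called in 3 genes (Acta2, Myl9 and Tpm2) and in 6.3% of all genes tested. A rise of at least 2-fold was called in 1 gene, Actg1, and in 3.42% of all genes. Both depend on the settings. With 0.1 added in place of 1, Cnn1 was a further fall of that size. With median log2 ratio scaling the log2 fold change of Actg1 was 0.98, just under 2-fold. The median log2 fold change, p53-deficient minus WT, was -0.65 over the 9 genes and 0.03 over all genes tested. Because Actb and Actg1 make up most of the total, the summed FPKM of the 10 genes was nonetheless higher in p53-deficient libraries, at 2369 to 2492 FPKM, against 1878 to 1882 FPKM in WT libraries.

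**Figure D1:**
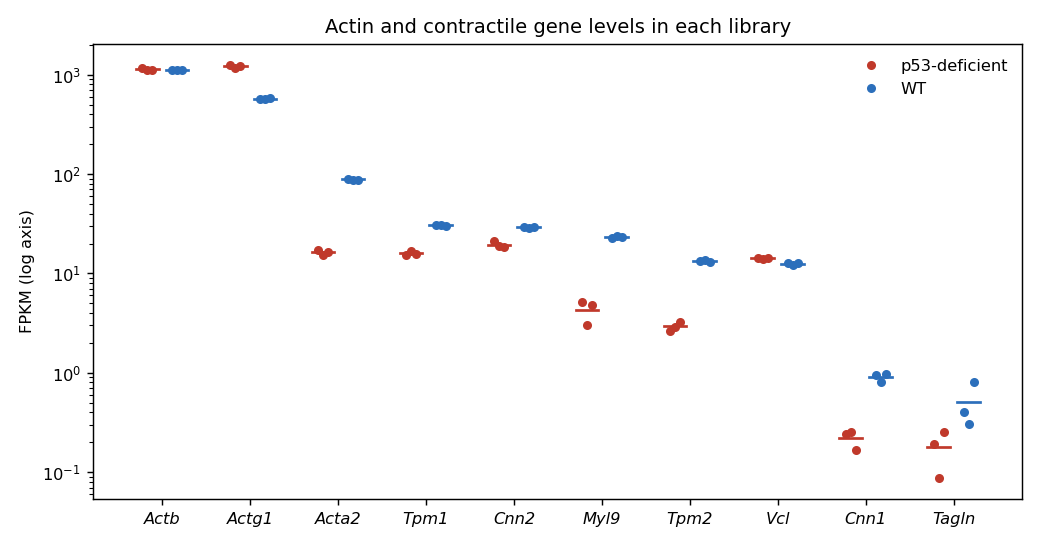
Level of each of the 10 genes in each library, as FPKM on a log axis, with genes ordered by their WT mean; points are libraries (3 p53-deficient in red, 3 WT in blue) and short lines are group means. Actg1 and Vcl lie higher in the p53-deficient libraries, the Actb points lie almost on each other, and the other 7 genes lie lower, with Acta2 at 15.3 to 17.4 FPKM in p53-deficient and 87.0 to 89.6 FPKM in WT libraries.

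The cytoplasmic actins Actb and Actg1 form the filaments of nearly every cell. Actg1, γ-actin (ENSMUSG00000062825, mm10 chr11:120345690-120348542, minus strand), held 1260, 1176 and 1210 FPKM in the p53-deficient libraries, against 573, 575 and 576 FPKM in the WT libraries. Every p53-deficient library stood about as far above every WT library, and the WT libraries hardly differed among themselves. The means were 1215 ± 42.3 and 575 ± 1.33 FPKM in p53-deficient and WT cells (SD, n = 3 each), which is a log2 fold change of 1.08 (SE 0.0307, limma adjusted p = 6.08e-07). By level, Actg1 ranked 17th of all genes in p53-deficient cells and 59th in WT cells.

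Actb, β-actin (ENSMUSG00000029580, chr5:142903115-142906754, minus strand), held 1156, 1122 and 1109 FPKM in p53-deficient libraries, against 1109, 1105 and 1108 FPKM in WT libraries. The lowest p53-deficient library was level with the highest WT library. The means were 1129 ± 24.1 and 1107 ± 1.75 FPKM in p53-deficient and WT cells (SD, n = 3 each), and the log2 fold change of 0.03 did not pass (SE 0.0256, 95% interval -0.03 to 0.09, limma adjusted p = 0.375). The direction depended on the scaling of the libraries: it was -0.07 (adjusted p = 0.0271) with each library scaled by its median log2 ratio and 0.19 (adjusted p = 0.000401) after quantile normalization. The ratio of Actg1 to Actb within a library, a measure chosen after the values were seen that does not depend on library scaling, was 1.08 ± 0.0250 in p53-deficient and 0.519 ± 0.00165 in WT cells (SD, n = 3 each). The exact permutation p for it was 0.1, the smallest that 3 libraries against 3 can give.

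Actg1 has 6 processed pseudogenes of at least 95% identity, and the labels do not state how a read that matches several genes was counted. Of these, 2 had a mean of at least 0.5 FPKM. Gm12715, 99.6% identical over the alignment, held 66.8 ± 3.42 FPKM in p53-deficient and 32.1 ± 0.812 FPKM in WT cells, and was called higher (limma adjusted p = 2.55e-06). Gm8399, 98.6% identical, held 8.41 ± 1.24 and 10.9 ± 0.854 FPKM in p53-deficient and WT cells, and was called lower (limma adjusted p = 0.0239). The division of reads between Actg1 and these copies is thus uncertain. Among the reads that were counted, adding the copies hardly moved the ratio. Relative to library size, Actg1 and the 6 copies together stood at 2.10 times the WT level in p53-deficient cells, against 2.12 times for Actg1 alone. Any reads left out because they match several genes are in neither value, so the sum cannot show their effect.

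Acta2, smooth muscle α-actin (ENSMUSG00000035783, chr19:34241090-34255336, minus strand), moved the other way. It held 17.4, 15.3 and 16.6 FPKM in p53-deficient libraries, against 89.6, 87.0 and 88.1 FPKM in WT libraries. The groups were far apart, and no library lay between them. The means were 16.4 ± 1.08 and 88.2 ± 1.299 FPKM in p53-deficient and WT cells (SD, n = 3 each), a ratio of 0.186 and a log2 fold change of -2.36 (SE 0.0465, limma adjusted p = 1.44e-07). Of the other muscle actins, Actg2, the enteric smooth muscle form, held 0.507 ± 0.195 and 4.53 ± 0.386 FPKM in p53-deficient and WT cells and was called lower. Acta1, the skeletal muscle form, held 0.283 ± 0.107 and 1.07 ± 0.284 FPKM and was also called lower. The cardiac form Actc1 was at 0 in the p53-deficient libraries and had 1, 0 and 1 reads in the WT libraries, and Actbl2 was at 0 in all libraries.

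Summed over the actins, the level was 2362 ± 63.7 FPKM in p53-deficient and 1776 ± 2.67 FPKM in WT libraries. The make-up of that sum differed as well. Actg1 gave 51.5 ± 0.560% of it in p53-deficient and 32.4 ± 0.0913% in WT libraries, Actb gave 47.8 ± 0.597% and 62.4 ± 0.0265%, and Acta2 gave 0.695 ± 0.0307% and 4.97 ± 0.0684%. Thus γ-actin was the more abundant cytoplasmic actin in every p53-deficient library and β-actin in every WT library. The groups did not overlap in any of these shares (exact permutation p = 0.1 each, two-sided, the smallest possible).

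Tropomyosins are coiled coils that lie along the filament and decide which other proteins can bind it. Tpm1 (ENSMUSG00000032366, chr9:67022590-67049406, minus strand) held 15.4, 16.8 and 15.6 FPKM in p53-deficient libraries, against 30.8, 31.0 and 30.1 FPKM in WT libraries. All p53-deficient values were close to 0.520 times the WT level, and the log2 fold change was -0.90 (SE 0.0382, limma adjusted p = 3.1e-06). Tpm1 has 21 annotated transcripts in GENCODE M21, muscle and cytoplasmic forms among them, which a single value per gene does not part.

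Tpm2 (ENSMUSG00000028464, chr4:43514711-43523765, minus strand) held 2.66, 2.89 and 3.27 FPKM in p53-deficient libraries, against 13.4, 13.7 and 12.9 FPKM in WT libraries. The fall was larger than that of Tpm1, with a ratio of 0.2204 and a log2 fold change of -1.87 (SE 0.0625, limma adjusted p = 1.17e-06). The other tropomyosins, which are the main forms of non-muscle cells, did not move together. Tpm3 held 102 ± 2.69 and 89.0 ± 1.35 FPKM in p53-deficient and WT cells and was called higher, with a log2 fold change of 0.19. Tpm4 held 45.5 ± 3.02 and 79.3 ± 2.00 FPKM and was called lower, with a log2 fold change of -0.79. Tpm1 and Tpm2 together gave 11.4 ± 0.790% of the tropomyosin sum in p53-deficient and 20.7 ± 0.291% in WT libraries, and Tpm3 gave 61.3 ± 0.854% and 41.9 ± 0.285% (exact permutation p = 0.1 each, the smallest possible).

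Calponins and transgelins are related filament-binding proteins; Cnn1 and Tagln mark smooth muscle, while Cnn2, Cnn3 and Tagln2 are found in many cell types. Cnn2 (ENSMUSG00000004665, chr10:79988584-79996062, plus strand) held 21.04, 18.96 and 18.3 FPKM in p53-deficient libraries, against 29.5, 28.4 and 29.5 FPKM in WT libraries. Its fall was moderate, with a ratio of 0.667 and a log2 fold change of -0.56 (SE 0.0522, limma adjusted p = 0.000106).

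Cnn1 (ENSMUSG00000001349, chr9:22099216-22109630, plus strand) was barely expressed, at 0.243, 0.253 and 0.166 FPKM in p53-deficient libraries and 0.952, 0.816 and 0.976 FPKM in WT libraries. These levels rest on 14, 8 and 8 reads in p53-deficient and 45, 44 and 55 reads in WT libraries. Relative to library size, the pooled reads stood at 0.239 of the WT level, with a 95% exact binomial interval of 0.156 to 0.356 that covers counting error only. The log2 fold change of -0.65 (SE 0.0779, limma adjusted p = 0.000362) understates this, since 1 was added to every FPKM before taking the logarithm; it was -1.67 with 0.1 added. The mean of all 6 libraries, 0.568 FPKM, was just above the filter, and without WT replicate 1 or WT replicate 3 Cnn1 was no longer tested.

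Tagln, transgelin or SM22α (ENSMUSG00000032085, chr9:45929619-45936058, minus strand), lay just below the filter, with a mean of 0.343 FPKM. It held 0.191, 0.0871 and 0.257 FPKM in p53-deficient libraries, from 8, 2 and 9 reads, against 0.408, 0.306 and 0.806 FPKM in WT libraries, from 14, 12 and 33 reads. The groups did not overlap, but the WT libraries differed among themselves by more than their lowest value did from the p53-deficient libraries. The pooled ratio of reads was 0.369 (95% exact binomial interval 0.208 to 0.628, counting error only), and in a fit with no filter the log2 fold change of -0.34 did not pass (limma adjusted p = 0.107). In the annotation 67.9% of its exon length overlaps Gm48529 on the opposite strand, and the library kit is not stated to mark the strand, so reads of the pair cannot be parted. Gm48529 held 0.184 ± 0.0361 and 0.149 ± 0.0563 FPKM in p53-deficient and WT libraries.

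The abundant, widely expressed relatives were lower as well. Cnn3 held 103 ± 3.01 FPKM in p53-deficient and 134 ± 1.46 FPKM in WT cells, and Tagln2 held 54.6 ± 2.69 and 86.6 ± 1.41 FPKM; both were called lower, at ratios of 0.773 and 0.631. Tagln3, a neuronal form, held 4.10 and 4.22 FPKM and did not pass. Cnn1 and Cnn2 together gave 15.96 ± 0.635% of the calponin sum in p53-deficient and 18.4 ± 0.505% in WT libraries (exact permutation p = 0.1, the smallest possible). Tagln gave 0.3001 ± 0.141% of the transgelin sum in p53-deficient and 0.552 ± 0.278% in WT libraries, with overlapping values (exact permutation p = 0.2). The difference of -0.252 percentage points was -0.0952 without WT replicate 3.

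Myl9 encodes a regulatory light chain of myosin II, whose phosphorylation switches on contraction. Myl9 (ENSMUSG00000067818, chr2:156775420-156781658, plus strand) held 5.11, 3.05 and 4.83 FPKM in p53-deficient libraries, against 23.0, 23.7 and 23.0 FPKM in WT libraries. The p53-deficient libraries were all low, but relative to their mean they were more spread than for any other called gene of the 10, replicate 2 resting on 41 reads. The means were 4.33 ± 1.12 and 23.3 ± 0.432 FPKM in p53-deficient and WT cells (SD, n = 3 each), a ratio of 0.186 and a log2 fold change of -2.21 (SE 0.150, limma adjusted p = 2.53e-05).

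The other regulatory light chains of non-muscle myosin, Myl12a and Myl12b, are close relatives of Myl9. Myl12a held 38.9 ± 0.913 and 24.7 ± 1.46 FPKM in p53-deficient and WT cells and Myl12b held 3.56 ± 0.352 and 2.24 ± 0.304 FPKM; both were called higher, with log2 fold changes of 0.64 and 0.50 (limma adjusted p = 2.99e-05 and 0.00268). The sum of the 3 genes was 46.8 ± 2.24 FPKM in p53-deficient and 50.2 ± 1.56 FPKM in WT libraries (exact permutation p = 0.2), while the share of Myl9 in it was 9.19 ± 2.01% and 46.3 ± 0.750% (exact permutation p = 0.1, the smallest possible). Counted as reads and not per length, the difference in that share was -19.8 percentage points, against -37.1. Most of the sum came from Myl12a in p53-deficient libraries, while Myl12a and Myl9 gave similar shares in WT libraries.

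Vcl, vinculin (ENSMUSG00000021823, chr14:20929398-21033676, plus strand), links integrin and cadherin adhesions to actin. It held 14.26, 13.99 and 14.41 FPKM in p53-deficient libraries, against 12.7, 12.2 and 12.6 FPKM in WT libraries. The rise was small but larger than the spread within either group, with a log2 fold change of 0.17 (SE 0.0284, limma adjusted p = 0.00166); with median log2 ratio scaling it was 0.08 (adjusted p = 0.0387). In the annotation 25.5% of its exon length overlaps Ap3m1 on the opposite strand, a gene at 9.34 ± 0.263 FPKM in p53-deficient and 10.7 ± 0.437 FPKM in WT cells, so reads in the overlap cannot be parted. Ap3m1 was called lower (limma adjusted p = 0.00733), the opposite direction to Vcl.

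**Figure D2:**
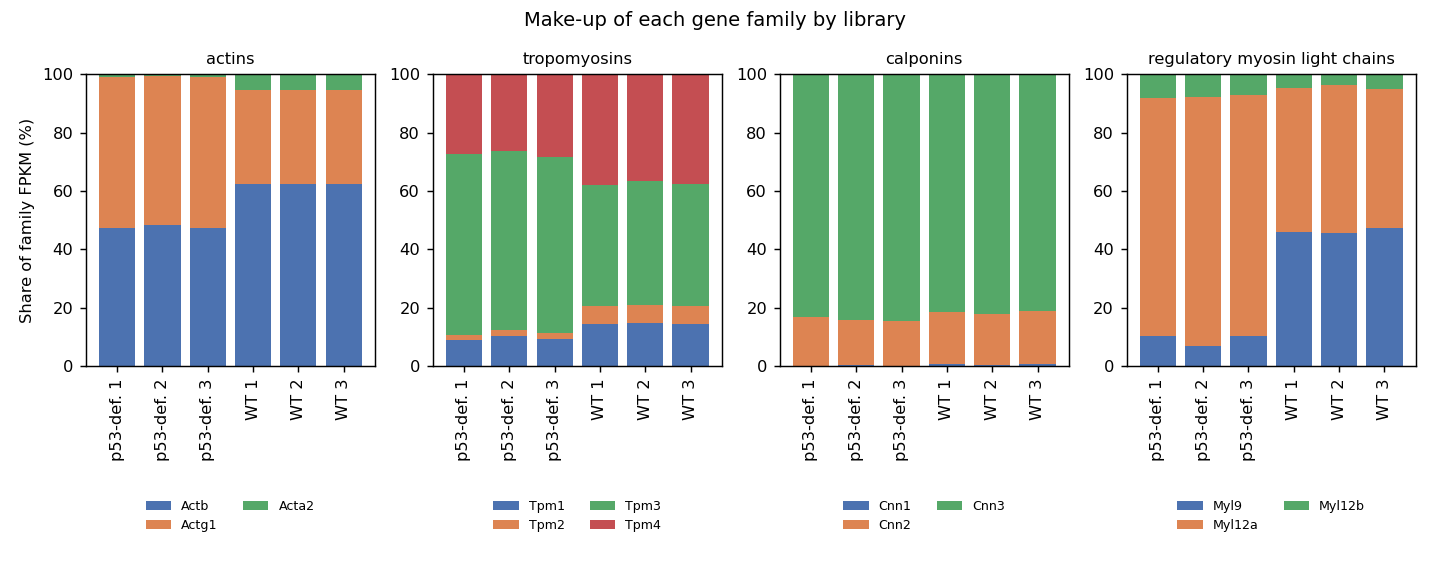
Share of each family's summed FPKM, in percent, given by its genes in each library, with the 3 p53-deficient libraries left of the 3 WT libraries in each panel; actins at under 0.3% of the sum are not drawn. Actg1 replaces Actb as the larger part of the actins in the p53-deficient libraries, and Myl12a takes 83.2% of the regulatory light chains in p53-deficient and 49.2% in WT libraries, where Myl9 takes most of the rest.

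The regulators of these genes and the rest of the actin cytoskeleton were counted from 8 lists of 92 other genes, of which 84 were tested. In p53-deficient cells 26 were called higher, 44 lower and 14 did not pass, with a median log2 fold change of -0.11; over all genes tested the shares called were 35.3% higher and 31.3% lower. The lists differed in their make-up, and 7 of them are described here.

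Of SRF and its cofactors, 6 of 7 genes were tested, with 2 higher, 2 lower and 2 not passed; with median log2 ratio scaling 1 was higher and 3 lower, and after quantile normalization 3 and 2. Srf itself held 33.8, 33.0 and 36.0 FPKM in p53-deficient libraries, against 18.9, 18.8 and 18.7 FPKM in WT libraries. It was called higher at 0.83 on the log2 scale (SE 0.0352, limma adjusted p = 3.13e-06), and was higher under both other scalings as well. Elk3 and Elk1, SRF partners of the ternary complex family, were called lower, with log2 fold changes of -0.72 and -0.18. Among the MRTF cofactors, Mkl1 (MRTF-A), named after its values were seen, held 5.90 ± 0.399 and 5.25 ± 0.0809 FPKM in p53-deficient and WT cells and was called higher (log2 fold change 0.14, limma adjusted p = 0.0454), a call lost with median log2 ratio scaling (0.06, adjusted p = 0.348). Mkl2 (MRTF-B) did not pass, at 3.67 ± 0.0839 and 3.84 ± 0.104 FPKM in p53-deficient and WT cells. Myocd, the cofactor of smooth and cardiac muscle, had 1, 0 and 0 reads in p53-deficient and 0, 6 and 2 reads in WT libraries.

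Of 14 other genes widely described as targets of SRF or its cofactors, 4 were called higher, 9 lower and 1 did not pass, with a median log2 fold change of -0.81. The largest fall on the log2(FPKM + 1) scale was of Thbs1, an adhesive glycoprotein of the matrix. It held 25.0 ± 0.733 and 172 ± 2.10 FPKM in p53-deficient and WT cells, a ratio of 0.146. That scale understates changes of genes at low levels. Filip1l, named after its values were seen, had a lower ratio of 0.118, at 0.566 ± 0.0849 and 4.78 ± 0.198 FPKM in p53-deficient and WT cells. The immediate early gene Fos went the other way, at 48.9 ± 1.29 FPKM in p53-deficient and 9.42 ± 1.22 FPKM in WT cells. Egr1, another immediate early gene, named here after its values were seen, held 36.5 FPKM in p53-deficient and 7.38 FPKM in WT cells. Ahnak, a large scaffold protein, did not pass, at 16.04 ± 1.00 and 14.9 ± 0.163 FPKM.

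Genes of focal adhesions and filament crosslinking were tested in full, with 6 of 20 higher, 13 lower and 1 not passed. The largest falls on the log2(FPKM + 1) scale were of Lima1, Tgfb1i1 and Palld, which bind or organise stress fibres. Their log2 fold changes were -1.68, -1.19 and -0.90. That scale understates the fall of Tgfb1i1, which held 0.463 FPKM in p53-deficient and 2.319 FPKM in WT cells. Its ratio of mean FPKM, p53-deficient over WT, was 0.1996, lower than the 0.2756 of Lima1. Csrp2 did not pass, at 52.7 ± 2.17 and 52.4 ± 1.196 FPKM in p53-deficient and WT cells. Vcl was thus among the smaller number of adhesion genes called higher.

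Proteins that bind actin monomers or turn filaments over were divided, with 6 higher, 4 lower and 3 not passed of 13 tested; the split was 4 higher and 5 lower with median log2 ratio scaling and 5 and 5 after quantile normalization. Gsn, gelsolin, which severs filaments, held 7.85 ± 0.373 and 40.5 ± 1.02 FPKM in p53-deficient and WT cells, and Capg, a capping protein, held 4.30 ± 0.209 and 12.2 ± 0.604 FPKM; both were called lower. Tmsb4x, thymosin β4, the main buffer of free actin monomers, held 673 ± 19.4 and 417 ± 9.998 FPKM and was called higher. Cap1 did not pass, at 75.4 ± 1.43 and 73.5 ± 1.91 FPKM.

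The Arp2/3 complex, which nucleates branched filaments, moved little: 4 higher, 2 lower and 3 not passed of 9, or 4 and 4 called under either other scaling. Its called genes of greatest change were Arpc5l, Actr3 and Actr2, with log2 fold changes of 0.35, 0.30 and 0.20, and Arpc2 did not pass, at 89.3 ± 1.70 and 89.8 ± 1.34 FPKM in p53-deficient and WT cells. Among the relatives of calponin, transgelin, tropomyosin and tropomodulin, 1 was higher, 5 lower and 2 not passed of 8 tested. The largest fall there was of Cald1, caldesmon, at 6.27 ± 0.226 and 30.2 ± 0.286 FPKM, and Tmod3, a capper of pointed ends, did not pass, at 6.81 ± 0.350 and 6.79 ± 0.0862 FPKM.

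**Figure D3:**
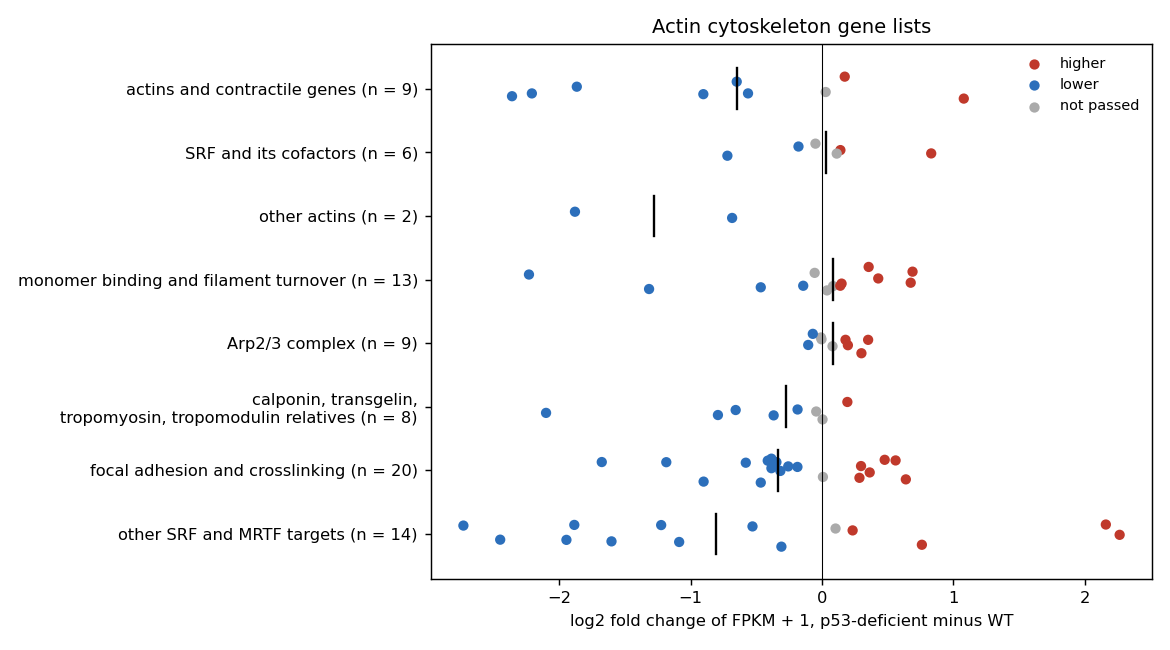
Log2 fold change of FPKM + 1, p53-deficient minus WT, for each tested gene of the actin and contractile genes and of 7 actin cytoskeleton lists; colours give the call (limma, adjusted p under 0.05) and black lines the list medians, with vertical scatter only to part the points. The Arp2/3 points lie near 0, while the other SRF and MRTF targets spread between the fall of Thbs1 and the rises of Fos and Egr1, with a median of -0.81.

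Markers of other cell types also differed between the groups. Of 30 fibroblast markers 27 were tested and all 27 were called lower in p53-deficient cells, with a median log2 fold change of -2.01 and summed levels of 595 to 626 FPKM in p53-deficient and 1923 to 1931 FPKM in WT libraries. The most abundant were Lgals1 (111 ± 7.53 and 389 ± 10.4 FPKM in p53-deficient and WT cells), Sparc (122 ± 3.28 and 242 ± 8.17 FPKM) and Vim (117 ± 3.94 and 162 ± 1.18 FPKM). None of the 30 was at 0 in all libraries, but those not tested were near 0. Pooled reads in p53-deficient and WT libraries were 0 and 1 for Tcf21, 2 and 22 for S100a4, and 13 and 134 for Fap. The 10 smooth muscle markers were mostly near 0: only 4 were tested, with Actg2 and Cald1 lower, Smtn higher and Des not passed, and Myh11, the defining myosin heavy chain of smooth muscle, held 0.0569 ± 0.00999 and 0.233 ± 0.0315 FPKM.

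The 4 Y-linked genes measured had 103 pooled reads in p53-deficient and 1161 in WT libraries, a ratio relative to library size of 0.102 (95% exact binomial interval 0.0823 to 0.124, counting error only). Of 7 endothelial and blood markers 4 were tested, with 1 higher (Kdr, at 1.06 and 0.225 FPKM in p53-deficient and WT cells) and 3 lower. The list summed to 12.5 to 13.7 FPKM in p53-deficient and 26.9 to 29.0 FPKM in WT libraries. Most of that came from Pecam1, at 11.5 and 24.0 FPKM, so the sum mainly follows that gene. Those not tested were Cdh5 (0.0241 and 0.0368 FPKM in p53-deficient and WT cells), Ptprc (0.0196 and 0.0165 FPKM) and Cd34 (0.185 and 0.725 FPKM). The labelled cell type was borne out by its own markers: the pluripotency genes Dppa5a, Pou5f1 and Nanog held 1075 ± 35.1, 407 ± 15.5 and 221 ± 6.10 FPKM in p53-deficient cells, against 2007 ± 30.0, 371 ± 4.43 and 330 ± 0.879 FPKM in WT cells. Of the 10 pluripotency markers 5 were called higher and 4 lower, with a median log2 fold change of 0.03; with median log2 ratio scaling 3 were higher and 5 lower.

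Set side by side as ratios of mean FPKM, p53-deficient over WT, the contractile genes fell into a graded order. Acta2 and Myl9 both stood at 0.186, Tpm2 at 0.2204, Cnn1 at 0.241, Tagln at 0.352, Tpm1 at 0.520, Cnn2 at 0.667, Actb at 1.02, Vcl at 1.14 and Actg1 at 2.12. Over 29 fibroblast markers with reads in both groups the ratios ran between 0.0785 (Prrx1) and 0.723 (Vim), with a median of 0.176, and over the 10 smooth muscle markers between 0.112 (Actg2) and 1.42 (Smtn), with a median of 0.226. The genes best known from contractile mesenchymal cells were thus among the lower ratios and the actins of all cells among the higher. What part the cells that carry these markers have in the levels of the contractile genes was not tested.

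**Figure D4:**
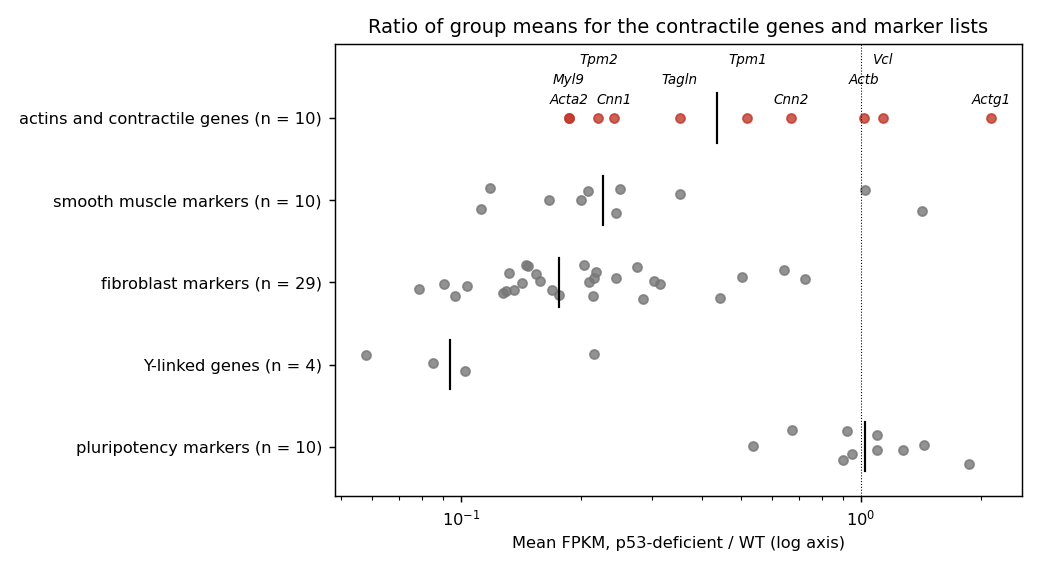
Ratio of mean FPKM, p53-deficient over WT, on a log axis, for the 10 actin and contractile genes (red, named) and for marker lists (grey); black lines are medians and the dotted line marks equal means. Acta2, Myl9, Tpm2, Cnn1, Tagln, Tpm1 and Cnn2 lie within the range of the fibroblast markers (0.0785 to 0.723), while Actb, Vcl and Actg1 lie above it. The ranges overlap: Cnn2, Actb and Vcl lie within that of the pluripotency markers (0.536 to 1.86). All of the 10 genes but Actg1 lie within that of the smooth muscle markers (0.112 to 1.42).

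The neighbourhoods of the 10 genes were looked at after their values were seen. There were 46 tested genes that reached within 500 kb of Actg1, of which 29 were called higher and 6 lower in p53-deficient cells, with a median log2 fold change of 0.55, 11 rises of at least 2-fold and 2 falls of at least 2-fold. Of 9058 genes with at least 10 tested neighbours, 72 (0.795%) had a neighbour median as high, Actg1 itself included. Genes close together share neighbours, so this share is not a count of separate regions. Among genes of at least 5 FPKM, Actg1 lay in a run of 27 consecutive genes with positive log2 fold changes, between Cant1 and Gm17586 (mm10, chr11:118406289-120635125, 2229 kb), of which 25 were called higher. Tested genes below 5 FPKM were left out of the run, and within its span they went both ways. In the stretch from Cbx2 to the end of the run, more of them were called higher than lower. Tbc1d16, Sgsh and 2900052L18Rik were called lower there. Ccdc40, Slc26a11, Endov, 2810410L24Rik, 0610009L18Rik, Arl16, Gm16755 and Npb were called higher, and the others did not pass. With FPKM as deposited, no longer run of a single sign was found on any chromosome at that level, the next being of 19 genes on the X chromosome. Runs on other chromosomes were not ranked under other scalings. The run had a median log2 fold change of 0.87, and the log2 fold changes ran between 0.02 (Mcrip1, not passed) and 1.57 (Pcyt2).

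The run holds genes of varied function. Alyref, an mRNA export factor, held 111 ± 4.52 and 41.3 ± 1.00 FPKM in p53-deficient and WT cells, Eif4a3, a core factor of the exon junction complex, held 251 ± 7.51 and 95.4 ± 1.39 FPKM, and P4hb, a protein disulfide isomerase, held 294 ± 6.89 and 207 ± 1.88 FPKM. Summed over the 26 genes of the run other than Actg1, the level was 1643, 1585 and 1573 FPKM in p53-deficient libraries, against 837, 843 and 840 FPKM in WT libraries, a ratio of 1.91. Since the genes of the run were picked by the sign of their change, the direction of this sum and of the run's median follows from the choice. With median log2 ratio scaling the run was 17 genes long and after quantile normalization 18, and in each case 25 of the 27 genes were still called higher. DNA copy number was not measured here, and whether it or any other regional cause has a part in the level of Actg1 was not tested.

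Acta2 had 10 tested neighbours within 500 kb and all 10 were called lower, with a median log2 fold change of -1.65 and 7 falls of at least 2-fold. Of the 9058 genes, 3 (0.0331%) had a neighbour median as low, Acta2 itself included, and here too nearby genes share neighbours. The 10 neighbours include Fas, a death receptor known as a p53 target, at 0.688 ± 0.160 and 4.03 ± 0.466 FPKM in p53-deficient and WT cells, and Ch25h, a cholesterol hydroxylase, at 1.02 ± 0.121 and 10.6 ± 0.407 FPKM. They also include the interferon-induced Ifit1, at 1.40 ± 0.0811 and 12.1 ± 0.528 FPKM, and Ifit3, at 0.895 ± 0.0489 and 21.1 ± 0.458 FPKM, which has a close copy in Ifit3b. Ifit2 and Ifit3b, of the same family, and the related pair Lipo2 and Lipo3 are also among the 10. Ifit2 and Ifit3b held 0.487 and 0.147 FPKM in p53-deficient cells, against 3.92 and 4.60 FPKM in WT cells. They passed the filter of 0.5 FPKM only through the WT libraries, which favours a lower call. Without them Acta2 would have fewer than the 10 neighbours needed for the count among 9058 genes. Tpm1 had 7 of 8 tested neighbours called lower, with a median of -0.51. Around the other 7 genes the neighbour medians ran between -0.18 (Tagln and Tpm2) and 0.08 (Cnn2).

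**Figure D5:**
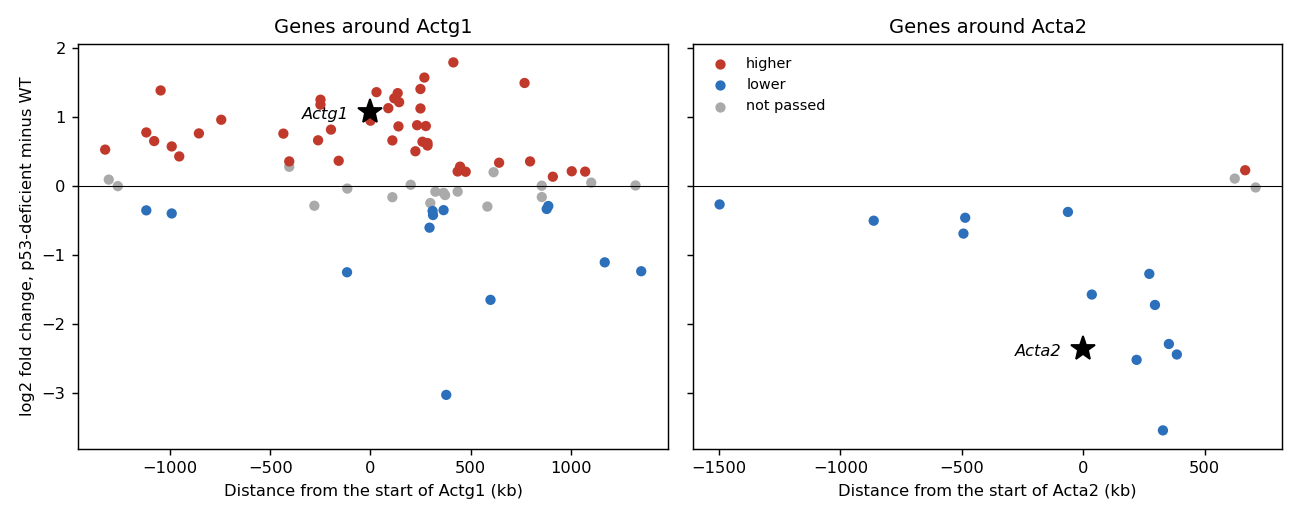
Log2 fold change of FPKM + 1, p53-deficient minus WT, of each tested gene around Actg1 (left) and Acta2 (right), against the distance between gene starts in kb; stars mark Actg1 and Acta2 and colours give the call. Of 46 genes with any part within 500 kb of Actg1, 29 were called higher and 6 lower, and the 10 such genes around Acta2 all lie below 0.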

How the data were processed

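Poly(A) RNA was sequenced from 3 p53-deficient and 3 WT libraries. Per the labels, mRNA was purified with poly-T beads and libraries were made with a NEBNext Ultra kit; no label says that strand was kept. The values the authors deposited are FPKM. The submitters' processing notes name HISAT2 2.0.5, featureCounts 1.5.0-p3 and the build mm10, without roles; the handling of reads that match several genes is not given. The depth is that of reads rebuilt as FPKM times the deposited gene length, which gave whole multiples of a step for each library (tolerance 0.001). Of the symbols, 27 turned into dates by a spreadsheet were restored.

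Genes with a mean of 0.5 FPKM or more were compared between the groups, as log2(FPKM + 1), with limma 3.58.1 (R 4.3.3; two-sided, with a variance trend, Benjamini-Hochberg over 15144 genes, adjusted p under 0.05). Errors are SD over 3 libraries. Family shares were compared with an exact two-sided permutation test. Ratios of reads carry 95% exact binomial intervals. Near copies were sought with BLAST (identity at least 95%, covering 50% of the shorter transcript and 100 bases). The fit was run on simulated reads in which 14982 of 15181 genes were unchanged. It recovered 30.0% of the 1.25-fold, 64.0% of the 1.5-fold and 93.9% of the 2-fold changes. Far fewer genes changed there than were called in the real data. Gene annotation was GENCODE M21, in which 98.3% of the genes found had the deposited coordinates.

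The members and gene lists were chosen with earlier results of these data known. All 163 list symbols were matched. Named genes were the 10 genes, their families, Trp53, up to 3 called genes of largest change and the most abundant gene that did not pass for each cytoskeleton list, the 3 most abundant fibroblast and pluripotency markers and the Y-linked genes pooled. The actin ratio, Egr1, Filip1l, Mkl1, the pseudogenes, overlapping genes and neighbours, and the muscle and remaining marker genes named, were chosen after their values were seen. Each choice was also varied: the pseudocount (0.1), the filter (none, or mean FPKM at least 5), the scaling (median log2 ratio, quantile normalization), the trend (none), a block for replicate number, voom weights on rebuilt reads, shares from reads, and each library left out in turn. Results of 1 cytoskeleton list and of 1 named gene are not reported here.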

Additional observations from a re-analysis of the deposited data

How the results depend on the processing

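Among the 10 genes, direction and call were the same for the 8 called genes under every alternative in which they were tested. Falls of at least 2-fold were called in 4 of the 10 genes with 0.1 added or with voom weights, against 3. Actb, not passed, had a log2 fold change of -0.068 (called lower) with median log2 ratio scaling and 0.19 (called higher) after quantile normalization. The median log2 fold change of all genes was -0.05 with median log2 ratio scaling and 0.05 after quantile normalization, against 0.03. Among all genes, 2268 were called lower at a mean FPKM of at least 5, where 7752 genes are tested, against 4733 of 15144. Cnn1 was not tested at that filter. Same-numbered libraries of the groups did not deviate together (correlations -0.03, 0.01 and 0.01), which gives no sign of pairing but cannot show how the libraries were prepared. With the replicate block 2 of the 10 genes were called higher and 6 lower, and 5187 and 4579 of all genes. Leaving out each library gave 5 to 6 of the 10 genes called lower, 2 higher, and a log2 fold change of -2.40 to -2.31 for Acta2, -2.32 to -2.02 for Myl9, 1.05 to 1.10 for Actg1 and 0.16 to 0.18 for Vcl. The difference in the Tagln share of the transgelins ran between -0.36 and -0.10 percentage points. Counted as reads rather than per length, the difference in the Myl9 share of the light chains was -19.8 percentage points, against -37.1. Depth limits Tagln and Cnn1, at 2 to 55 reads a library.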
